A study of Mus musculus with 2 samples.

Results

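The proteasome genes of the array were followed in injured mouse kidney that lacked or carried estrogen sulfotransferase (EST, encoded by Sult1e1), the enzyme that attaches sulfate to estrogens. Members were the probe sets (groups of short probes that read one transcript) whose single annotated gene symbol begins with Psm, one letter from a to g and a digit. The rule found 103 probe sets of 45101 on the array, for 49 genes of 18194. The EST KO AKI pool held kidney tissue (124 mg) of 6 male C57BL/6 mice that lacked EST, and the WT AKI pool held kidney tissue (180 mg) of 3 male wild-type C57BL/6 mice. Both groups had 30 min of warm ischemia of both kidneys at 8 weeks of age and were examined 24 h after reperfusion, a model of acute kidney injury (AKI), so no value here sets injured against uninjured kidney. The labels do not say which part of Sult1e1 was disrupted.

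Each pool was read on 1 array, so the spread between mice is not known and no test between genotypes is possible. Values are linear intensities that the authors had scaled alike, and a level of 638.3 in the EST KO pool and of 676.1 in the WT pool was taken as background (the 95th percentile over 129 probe sets of families that are mostly silent in kidney). Sult1e1 read 17.2 in EST KO and 472.7 in WT kidneys, both below background, so it does not check the genotype. One label field names liver for the EST KO pool where the others name kidney; albumin (Alb), which hepatocytes make in bulk, read 522.3 in EST KO and 487.9 in WT kidneys, below background in both. Of 8 listed hepatocyte genes 3 were measured: Cyp2e1, a cytochrome P450 that mouse kidney also expresses, read 20655 in EST KO and 11569 in WT kidneys, 1.79-fold higher, Cps1, of the urea cycle, was 1.11-fold higher, and Serpina1c, a protease inhibitor, was at least 1.33-fold lower. Apoa1, Tat, Ahsg and Hpx lay below background in both pools, as did Alb. The summed intensity of the 8 was 23354 in EST KO and 14748 in WT kidneys, and most of it was that of Cyp2e1. The part of liver tissue in the sum was not tested. In such tissue fewer cells of a type and less RNA per cell cannot be told apart.

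The proteasome is the barrel-shaped protease that degrades ubiquitin-tagged proteins in cytosol and nucleus. Its core is built of outer alpha rings, which gate entry, and inner beta rings, which hold the catalytic sites; a cap bound to the core has a base, whose ATPases unfold the substrate, and a lid, which removes ubiquitin. In immune cells and under interferon gamma, the catalytic beta subunits can be replaced by immunoproteasome subunits, and other activators can take the place of the cap.

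Messenger RNA levels of the proteasome differed by less than 1.5-fold between the EST KO and WT pools for every gene above background in both. Of the 49 genes, 41 lay above background in at least 1 pool ("measured") and 38 in both, and each was read from its brightest probe set. The other 3 (Psmd7, Psmd9 and Psmg2) have a fold only as a lower bound, counted here at that bound. None of the 41 was higher by 1.5-fold in EST KO kidneys, against 8.46% of 7480 measured genes, and none was 1.5-fold lower, against 7.43%. At 2-fold the counts were also 0 in both directions, against 3.02% of measured genes higher and 1.4% lower. The log2 ratio (EST KO minus WT) ran from −0.53 for Psmc5 to 0.43 for Psmd7, with a median of −0.04 beside −0.05 over all measured genes. Ratios lay above 0 for 19 members and below it for 22, and for 43.6% of all measured genes they lay above 0.

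**Figure D1:**
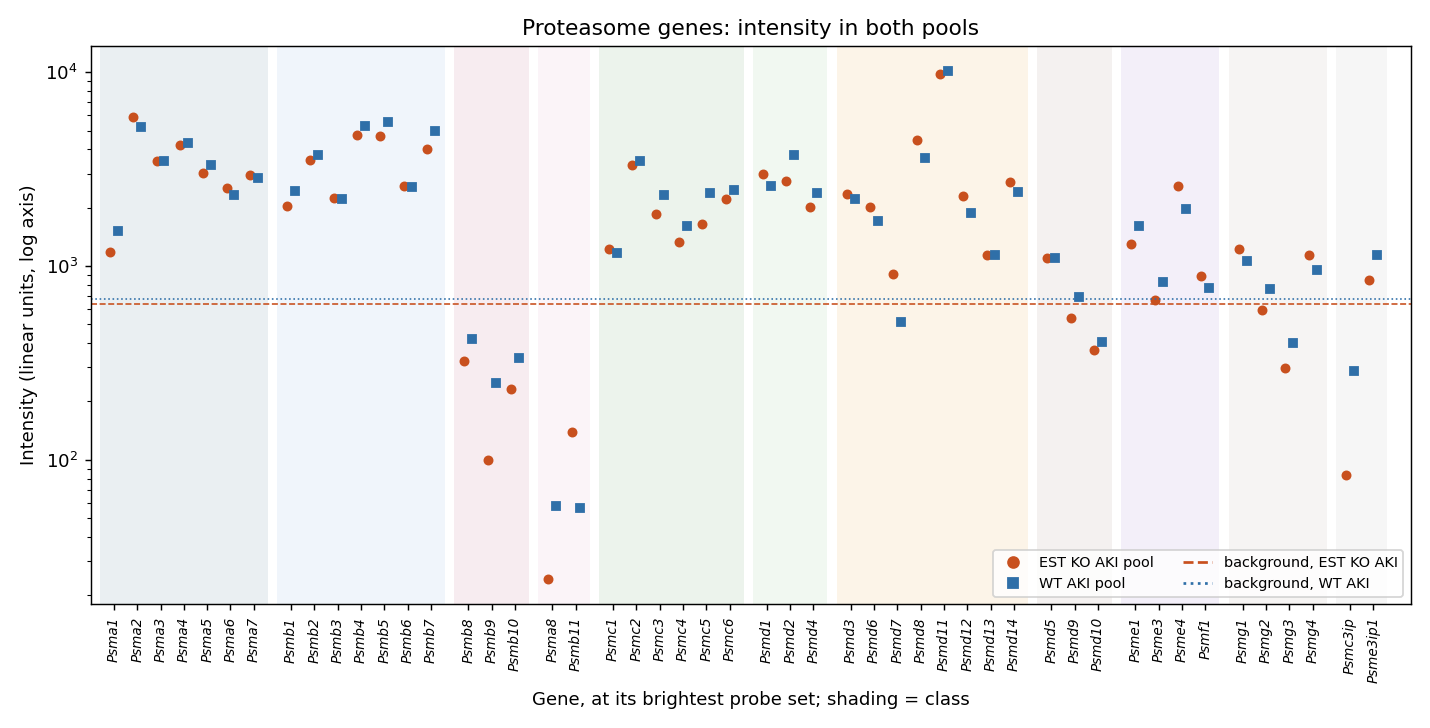
Intensity (log axis) of each of the 49 genes at its brightest probe set, with 1 circle for the EST KO AKI pool and 1 square for the WT AKI pool; shading separates the classes and the horizontal lines are each array's background (638.3 and 676.1). Both symbols of a gene lie close together for most of the core and cap, whereas all 3 immunoproteasome genes lie under both lines.

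At a smaller limit of 1.2-fold, chosen after the values were seen, 5 members were higher, against 21.4% of measured genes, and 9 were lower, against 25.6%. The 5 included 3 lid subunits (Psmd7, Psmd8 and Psmd12), and 4 of the 9 were base subunits (Psmc3, Psmc4, Psmc5 and Psmd2). Over the 38 members above background in both pools the SD of the log2 ratio was 0.24, beside 0.46 over 6115 such genes of the array. Of those 6115 genes, 15.7% were at least 1.5-fold apart in either direction. Members were not matched to other genes by level, so the narrower range is a description only.

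**Figure D2:**
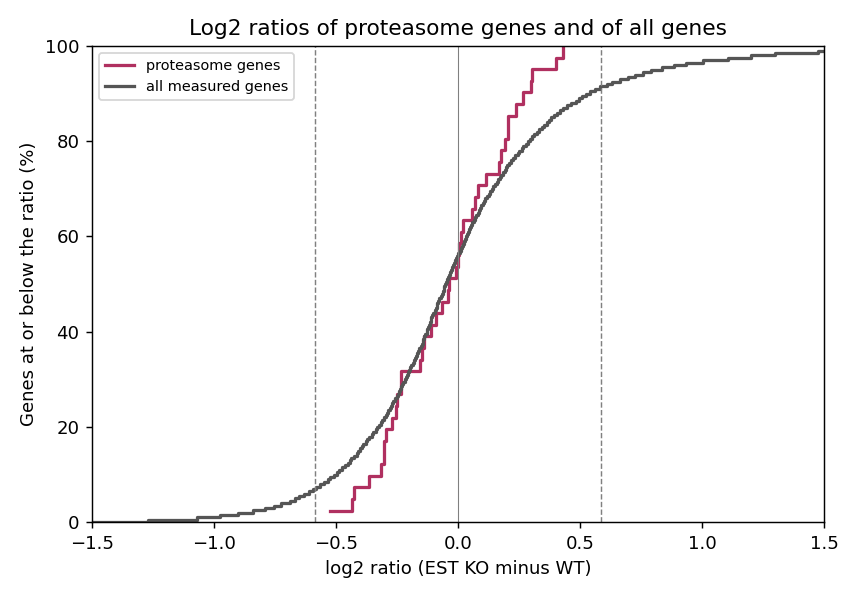
Cumulative share of genes (vertical axis, percent) at or below a given log2 ratio of EST KO minus WT (horizontal axis, cut at −1.5 and 1.5), for the 41 measured proteasome genes and for all 7480 measured genes; dashed lines mark 1.5-fold. The curves cross 0 together, and the proteasome curve is complete within the dashed lines.

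The only error that can be measured with 1 array per genotype is that between probe sets of the same gene. For 13 member genes with 2 or more probe sets above both backgrounds, the log2 ratio of 1 probe set had an SD of 0.13, estimated from the difference between the 2 brightest, and over 1663 genes of the array that SD was 0.28. The signs of the 2 probe sets were opposite in 5 of the 13 genes. Of the 41 measured members, 13 had a log2 ratio beyond 0.27, which is 2 SD on the members' own scale, 4 of them higher and 9 lower. None lay beyond 0.55, which is 2 SD on the scale of all genes. Both scales come from probe sets of the same arrays and hold no spread between mice, pools or arrays. The counts beyond them are therefore a description only.

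The alpha ring, which forms the gate of the core, had all 7 genes above background in both pools. Its median log2 ratio was 0.0006, with 4 genes higher and 3 lower. Under quantile normalization the log2 ratios of Psma2 (−0.03), Psma3 (−0.16) and Psma7 (−0.09) fell below 0. Centring on the median gene put Psma4 at 0.02, so the split is not settled. Psma1 had the lowest ratio of the ring, reading 1174.5 in EST KO and 1513 in WT kidneys, 1.29-fold lower. Psma2 had the highest, reading 5860 in EST KO and 5184 in WT kidneys, 1.13-fold higher. Psma3 read 3471 in EST KO and 3470 in WT kidneys. Psma4, Psma5, Psma6 and Psma7 had log2 ratios between −0.14 and 0.12, and the second probe set of Psma7, at −0.23, was opposite in sign to its brightest.

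The constitutive beta ring had 5 of 7 genes lower and 2 higher, with a median log2 ratio of −0.15. Its members that cut proteins are Psmb5, Psmb6 and Psmb7, which cleave after hydrophobic, acidic and basic residues. Psmb7 read 4015 in EST KO and 4959 in WT kidneys, 1.24-fold lower. Psmb5, the target of the drug bortezomib, read 4708 in EST KO and 5538 in WT kidneys, 1.18-fold lower. Psmb6 read 2573 in EST KO and 2568 in WT kidneys, nearly equal, and its log2 ratio was −0.12 under quantile normalization, −0.04 with the intensity trend removed and −0.01 with a pseudocount, so its direction is not settled. Among the structural members, Psmb1 read 2039 in EST KO and 2431 in WT kidneys, 1.19-fold lower, and Psmb2, Psmb3 and Psmb4 had log2 ratios between −0.15 and 0.02. Second probe sets of Psmb1 (0.04) and Psmb4 (0.07) lay on the other side of 0. Quantile normalization, which forces both arrays to the same distribution, lowered the median of the beta ring to −0.34 and that of the alpha ring to −0.16.

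The immunoproteasome subunits were not measured. Psmb8, which replaces Psmb5, read 323.5 in EST KO and 420.1 in WT kidneys. Psmb9, which replaces Psmb6, read 99.9 in EST KO and 249.3 in WT kidneys, and Psmb10, which replaces Psmb7, read 232.0 in EST KO and 335.3 in WT kidneys. All 6 values lie below background, so they have no order and no fold is given. With background at the 75th percentile of the silent families (325.8 in EST KO and 348.1 in WT kidneys), Psmb8 passed it in the WT pool alone and its EST KO value was lower by at least 1.29-fold, while Psmb9 and Psmb10 stayed below it in both. Psmb11, the thymus subunit, and Psma8, the testis alpha subunit, read between 24.3 and 139.9 in both pools, and all 5 testis genes listed as a check (Sycp3, Prm1, Prm2, Tnp1 and Tnp2) lay below background.

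Leukocyte markers stood beside these values as follows. Of 14 listed, 7 were measured and all 7 were lower in the EST KO pool. Among them 2 were at least 1.5-fold lower, against 7.43% of all measured genes. The summed intensity of the 14 was 8559 in EST KO and 12481 in WT kidneys. S100a8, a calprotectin subunit of neutrophils, read 649.3 in EST KO and 2092.5 in WT kidneys, 3.22-fold lower, and Tyrobp, an adaptor of myeloid receptors, read 739.5 in EST KO and 1392 in WT kidneys, 1.88-fold lower. S100a9, the partner of S100a8, was 1.42-fold lower, and Cd68, a macrophage protein, at least 1.28-fold lower. The defining marker Ptprc (CD45) lay below background in both pools, as did Cd3e of T cells and Cd79a of B cells. The part of leukocytes in the values of the proteasome was not tested.

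Genes that handle the peptides the proteasome releases did not pass 1.5-fold either. Of 9 genes of class I peptide loading, 7 were measured, with 4 higher, 3 lower and a median log2 ratio of 0.28. B2m, the light chain of class I molecules, read 9720 in EST KO and 7248 in WT kidneys, 1.34-fold higher, and its second probe set gave a log2 ratio of 0.42 as did the first. Pdia3, Canx and Calr, chaperones of the endoplasmic reticulum, were 1.33-fold, 1.26-fold and 1.22-fold higher at their brightest probe sets. Of the other probe sets of Canx, 1 gave a log2 ratio of 0.09. The last read 711.6 in EST KO kidneys and 487.6, below background, in WT kidneys, a log2 ratio of at least 0.07. The mean of the 3 Canx probe sets was 0.16 with that ratio taken at its bound, so it is a lower bound too. B2m, Pdia3, Canx and Calr were the 4 higher genes. Tap1, a subunit of the peptide transporter, was named after its value was seen and lies between Psmb9 and Psmb8 in the RefSeq gene order. It read 688.1 in EST KO and 743.4 in WT kidneys, 1.08-fold lower. Also lower were Tapbp (log2 −0.16, and −0.36 at its second probe set) and Erap1, at least 1.16-fold lower. Of 9 interferon response genes on the array 2 were measured, Irf7, at least 1.30-fold lower, and Irf1, 1.08-fold higher.

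In the cap, the base and the lid had medians of opposite sign. The base had 7 of 9 genes lower in the EST KO pool and a median log2 ratio of −0.23, whereas the lid had 6 of 8 genes higher and a median of 0.20, or 0.17 over its 7 genes above background in both pools. The ranges overlapped, from −0.53 to 0.19 in the base and from −0.04 to 0.43 in the lid. Across the alternatives the median of the base lay between −0.28 and −0.18 and that of the lid between 0.09 and 0.26. The difference between base and lid was not tested, since each pool had 1 array, and it was noticed after the values were seen.

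Among the ATPases of the base, which form the ring that unfolds and threads the substrate, 5 of 6 were lower and the median log2 ratio was −0.21. Psmc5 read 1649 in EST KO and 2375 in WT kidneys, 1.44-fold lower, the lowest ratio of all members, yet 9.43% of measured genes had a ratio as low or lower. Psmc3 read 1865 in EST KO and 2320 in WT kidneys, 1.24-fold lower, and Psmc4 read 1331 in EST KO and 1605 in WT kidneys, 1.21-fold lower. Psmc6 and Psmc2 had log2 ratios of −0.15 and −0.07. Psmc1 was the exception, reading 1219 in EST KO and 1161 in WT kidneys, 1.05-fold higher.

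The large scaffold subunits of the base went opposite ways. Psmd2, which docks ubiquitin-binding partners, read 2749 in EST KO and 3721 in WT kidneys, 1.35-fold lower. Psmd1 read 2965 in EST KO and 2592.5 in WT kidneys, 1.14-fold higher. Psmd4, a ubiquitin receptor of the cap, read 2017.5 in EST KO and 2373 in WT kidneys, 1.18-fold lower, and its second probe set gave a log2 ratio of −0.51. Under quantile normalization Psmc5 and Psmd2 both had a log2 ratio of −0.59, just past 1.5-fold lower.

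In the lid, Psmd7, which pairs with the deubiquitinating subunit, read 909.5 in EST KO and 515.0 in WT kidneys, where it lay below background, and so was at least 1.35-fold higher. With no floor at background its log2 ratio was 0.82. Psmd14, the subunit that cuts ubiquitin chains off the substrate, read 2718 in EST KO and 2420 in WT kidneys, 1.12-fold higher. Psmd8 read 4461.5 in EST KO and 3622 in WT kidneys, 1.23-fold higher, and Psmd12, another structural subunit, read 2305 in EST KO and 1875.5 in WT kidneys, 1.23-fold higher. Psmd6 was 1.18-fold higher, with log2 ratios of 0.24 and 0.23 at its 2 bright probe sets. Psmd3 (0.08), Psmd13 (−0.008) and Psmd11 (−0.04) had ratios near 0. Psmd11 had the most probe sets, 8, of which 4 lay above background; its brightest read 9807 in EST KO and 10101 in WT kidneys, and the other 3 gave log2 ratios from 0.02 to 0.22.

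**Figure D3:**
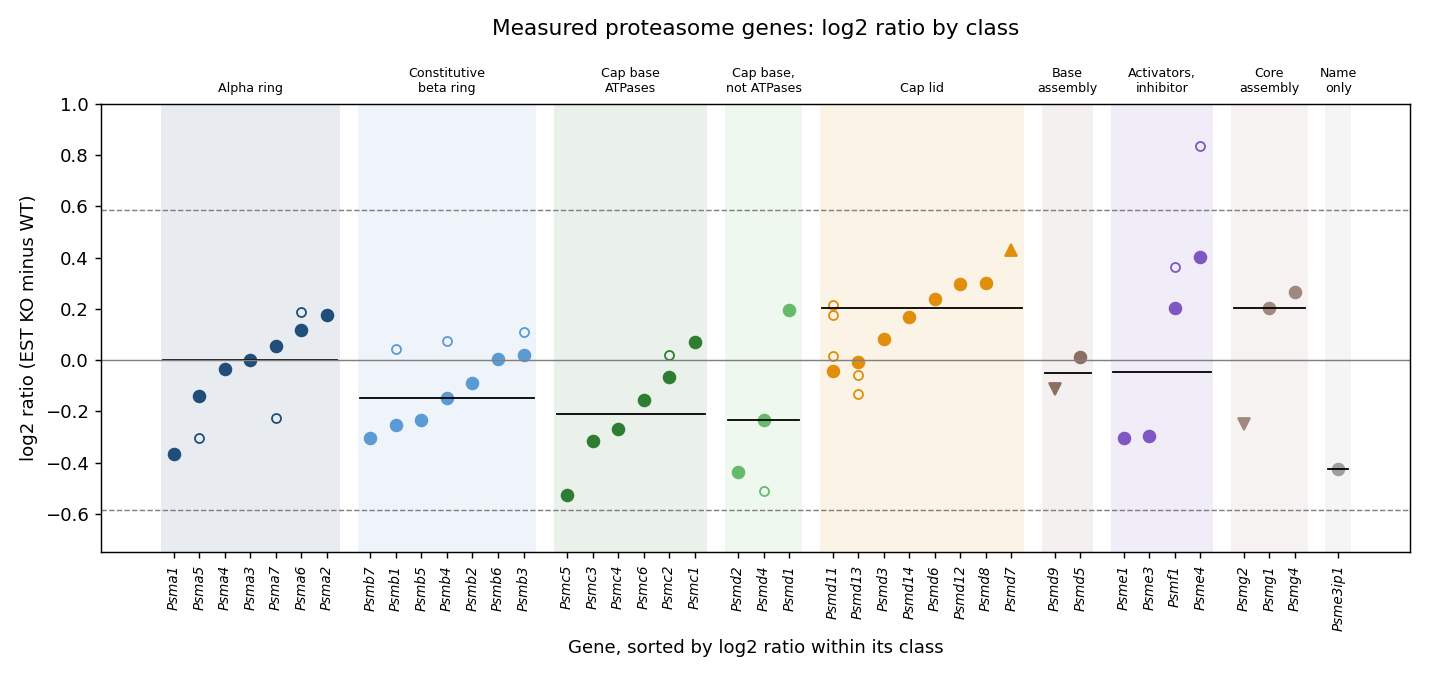
Log2 ratio (EST KO minus WT, vertical axis) of the 41 measured genes, sorted within class; filled symbols are the brightest probe set, triangles are bounds set by background, open circles are other probe sets above background, black bars are class medians and dashed lines mark 1.5-fold. Filled symbols stay within the dashed lines, most of the base lies under 0 and most of the lid above it, and the single symbol outside is an open circle of Psme4 at 0.84.

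Activators that bind the core in place of the cap did not share a direction. Psme4, which encodes PA200, a nuclear activator tied to histone breakdown and DNA repair, read 2595 in EST KO and 1965 in WT kidneys, 1.32-fold higher. Its other probe sets above background read 1671 in EST KO against 1266 in WT kidneys, and 1805 in EST KO against 1011 in WT kidneys, with log2 ratios of 0.40 and 0.84. Psme4 was the only member above background in both pools whose ratio reached 0.40, and the probe set at 0.84, 1.79-fold higher, was the only 1 of 58 member probe sets above background that passed 1.5-fold, against 9.5% of such probe sets higher and 7.15% lower over the array. A ratio as high or higher than that of its brightest probe set was found for 14.2% of measured genes.

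Psme1, a subunit of the interferon-induced PA28 activator, read 1304.5 in EST KO and 1611 in WT kidneys, 1.24-fold lower. Psme3, the nuclear form of PA28, read 669.7 in the EST KO pool, just above background, and 823.0 in the WT pool, 1.23-fold lower. The inhibitor Psmf1 (PI31) read 889.7 in EST KO and 773.0 in WT kidneys, 1.15-fold higher, with a log2 ratio of 0.36 at its second probe set. One further probe set is annotated to both Psme2, the partner of Psme1, and its relative Psme2b, and so falls outside the rule; it read 1194 in EST KO and 1321 in WT kidneys, 1.11-fold lower.

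Chaperones that build the proteasome were mixed in direction. Of 7 such genes 5 were measured, and 3 of them lay above background in both pools. Psmg1, of the pair that starts the alpha ring, read 1224.5 in EST KO and 1063 in WT kidneys, 1.15-fold higher, whereas its partner Psmg2 read 594.1 in EST KO and 758.5 in WT kidneys and was at least 1.19-fold lower. Psmg4, of the second pair, read 1145 in EST KO and 953.9 in WT kidneys, with a log2 ratio of 0.26, and its partner Psmg3 was not measured. Of the chaperones of the base, Psmd5 read 1104 in EST KO and 1096 in WT kidneys, Psmd9 was at least 1.08-fold lower, and Psmd10 (gankyrin) was not measured. Psme3ip1, which was matched by its name as a partner of Psme3 and is no subunit, read 843.6 in EST KO and 1133 in WT kidneys, 1.34-fold lower. Psmc3ip, a meiotic recombination factor matched in the same way, lay below background in both pools.

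Proteins that work on the proteasome but lie outside the symbol rule included 2 genes past 1.5-fold at their brightest probe sets. Of 12 listed, 10 were on the array under a single symbol and 9 were measured, with a median log2 ratio of −0.10. At 1.5-fold, 0 were higher and 2 lower, against 8.46% and 7.43% of all measured genes. The 2 were deubiquitinases of the cap. Uchl5 read 732.4 in EST KO and 1256 in WT kidneys, 1.71-fold lower, with 1 probe set above background (log2 −0.49 with a pseudocount). Usp14 read 5146 in EST KO and 7725 in WT kidneys, just past 1.5-fold lower at its brightest probe set (log2 −0.59), but its other probe sets gave −0.20 and 0.15, and the mean of the 3 was −0.21. Fbxo7, a partner of Psmf1, was 1.29-fold higher, and Ublcp1, a phosphatase of the nuclear proteasome, at least 1.29-fold lower. Pomp, the chaperone that completes the core and was named after its value was seen, read 3016 in EST KO and 2901 in WT kidneys.

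Nfe2l1 encodes NRF1, the transcription factor that is known to raise proteasome genes when proteasome activity falls. It read 953.7 in EST KO and 1832 in WT kidneys, 1.92-fold lower on its only probe set above background, and its log2 ratio was −0.94 as deposited and −0.66 with a pseudocount. Among 7 measured genes of the NRF1 list 5 were higher and 2 lower. At 1.5-fold, 1 was higher and 1 lower, against 8.46% and 7.43% of all measured genes. Herpud1, which serves degradation of endoplasmic reticulum proteins, read 7871 in EST KO and 1658 in WT kidneys, 4.75-fold higher, and its second probe set also gave a higher value in the EST KO pool (log2 2.76). Sqstm1, the autophagy receptor p62, was 1.32-fold higher on its 1 probe set above background. Zfand5, a proteasome-binding protein, gave 1.29-fold more signal in EST KO kidneys at the brightest probe set and less at the second (log2 −0.38). Nfe2l2, which encodes the related factor NRF2 and was named after its value was seen, counts as lower from its brightest probe set (3557 in EST KO and 4031.5 in WT kidneys, log2 −0.18). Its second probe set read 2233 in EST KO kidneys and 542.8, below background, in WT kidneys, a log2 ratio of at least 1.72, and the mean of both was 0.77, so the counts for the list depend on the probe set taken.

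NRF1 binds antioxidant response elements, so the promoters of members were searched for the core of that element. The RefSeq windows (GRCm38.p6) run from 250 bases before to 50 bases after each annotated gene start, and 44 windows covered 41 of the 49 genes. The core TGACNNNGC, on either strand, was present in 6 of the 44 member windows (13.6%) and in 12.4% of all 32851 windows, so its share in members lay near that of all genes. The 6 genes were Psmb5, Psmb6, Psmc6, Psmd9, Psmd12 and Psme4, whose log2 ratios ran from −0.23 to 0.40. CCAAT, on either strand, was present in 36.4% of member windows and 37.4% of all windows. The interferon-stimulated core GAAANNGAA was present in 7 member windows (15.9%) and in 8.56% of all windows. The 7 genes were Psmb3, Psmb4, Psmc2, Psmd4, Psmd9, Psme1 and Psmg4. They included Psme1 of the interferon-induced PA28 activator but no immunoproteasome subunit, and not every member had a window.

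The windows of Psme4, with the highest ratio above background in both pools, of the catalytic subunits Psmb5 and Psmb6, and of Psmc5, with the lowest ratio, are given 5′ to 3′ on the strand of the gene, with the antioxidant core (in Psme4 its reverse complement) in capitals. They lie at chr11:30771525-30771824 on the plus strand for Psme4, at chr14:54617946-54618245 on the minus strand for Psmb5, at chr11:70525107-70525406 on the plus strand for Psmb6 and at chr11:106255935-106256234 on the plus strand for Psmc5.
Psme4: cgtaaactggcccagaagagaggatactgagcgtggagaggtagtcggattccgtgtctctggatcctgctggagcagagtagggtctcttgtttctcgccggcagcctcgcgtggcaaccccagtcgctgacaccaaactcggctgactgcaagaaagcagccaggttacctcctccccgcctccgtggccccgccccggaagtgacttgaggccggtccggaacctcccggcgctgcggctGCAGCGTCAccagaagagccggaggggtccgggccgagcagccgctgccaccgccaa
Psmb5: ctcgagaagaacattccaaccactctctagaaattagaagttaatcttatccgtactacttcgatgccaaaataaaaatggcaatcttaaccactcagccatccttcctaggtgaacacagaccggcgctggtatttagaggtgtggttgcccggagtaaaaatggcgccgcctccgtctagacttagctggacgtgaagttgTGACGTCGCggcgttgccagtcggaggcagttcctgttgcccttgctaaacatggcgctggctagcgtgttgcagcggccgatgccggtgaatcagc
Psmb6: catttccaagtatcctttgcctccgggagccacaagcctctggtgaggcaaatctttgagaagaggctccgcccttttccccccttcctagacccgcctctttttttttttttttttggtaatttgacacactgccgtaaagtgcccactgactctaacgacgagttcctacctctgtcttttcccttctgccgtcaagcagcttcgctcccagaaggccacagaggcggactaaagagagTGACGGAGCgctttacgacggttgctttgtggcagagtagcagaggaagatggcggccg
Psmc5: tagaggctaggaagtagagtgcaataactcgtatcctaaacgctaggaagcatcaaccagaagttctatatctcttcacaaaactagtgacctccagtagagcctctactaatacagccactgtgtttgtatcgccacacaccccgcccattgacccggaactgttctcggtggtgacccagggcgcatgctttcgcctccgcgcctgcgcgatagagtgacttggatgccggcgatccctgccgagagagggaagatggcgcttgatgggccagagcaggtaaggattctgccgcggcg
The match began 7 bases before the annotated start in Psme4, 47 bases before it in Psmb5 and 9 bases before it in Psmb6, and the window of Psmc5 had none. A match describes these letters only, and binding was not measured.

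Genes that bring substrates to the proteasome ran from −0.63 to 0.39 on the log2 scale. Of 11 measured shuttle and p97 genes 6 were higher and 5 lower, with a median log2 ratio of 0.02. At least 1.5-fold lower was 1 gene, against 7.43% of all measured genes. Ubqln4, a ubiquilin shuttle, read 1075 in EST KO and 1669 in WT kidneys, 1.55-fold lower, and its second probe set gave a log2 ratio of −0.74, although with a pseudocount the gene was at −0.45. Ubqln2 was 1.48-fold lower and Ubqln1 1.31-fold higher, so the ubiquilins did not share a direction, and Ubxn4, a p97 adaptor, was 1.22-fold higher. Vcp, which encodes p97 itself and was named after its value was seen, read 6761 in EST KO and 7846 in WT kidneys, 1.16-fold lower.

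Of 9 measured genes that activate or transfer ubiquitin 7 were lower and 2 higher, with a median log2 ratio of −0.36, and 1 was at least 1.5-fold lower. Uba6, a ubiquitin-activating enzyme, read 728.9 in EST KO and 1098 in WT kidneys, 1.51-fold lower and −0.38 on the log2 scale with a pseudocount. Ube2d1 and Ube2n, which are conjugating enzymes, were each 1.32-fold lower. Ube2s, which extends chains in mitosis, was at least 1.39-fold lower. The 2 higher genes were Ube2d3 (log2 0.26), although another of its probe sets gave −0.03, and Ube2d2a (log2 0.18). Ube2g1 (log2 −0.26) and Ube2r2 (log2 −0.11) count as lower from their brightest probe sets. Their other probe sets gave 0.67 and 0.14, so the counts depend on the probe set taken. The summed intensity of the 9 was 24596 in EST KO and 25452 in WT kidneys.

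The proximal tubule and tubular injury lists differed more widely between the same arrays than the proteasome did. Members and lists were chosen with earlier results of these data known, so this contrast is a description only. Of 10 measured proximal tubule genes 7 were at least 1.5-fold higher in the EST KO pool, against 8.46% of all measured genes, and none was lower. Their summed intensities were 104392 in EST KO and 61240 in WT kidneys. Kap of this list had a log2 ratio of 0.20 at its brightest probe set and −0.34 at its second. Of 11 measured tubular injury genes none was higher and 9 were at least 1.5-fold lower, against 7.43% of all measured genes. Their summed intensities were 61267 in EST KO and 120709 in WT kidneys. All 5 measured endothelial genes were lower, 1 of them at least 1.5-fold, against 7.43% of all measured genes. That gene, Eng, had a log2 ratio of −0.75 at its brightest probe set and −0.04 at its second. The part of these shifts in the ratios of proteasome genes was not tested.

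**Figure D4:**
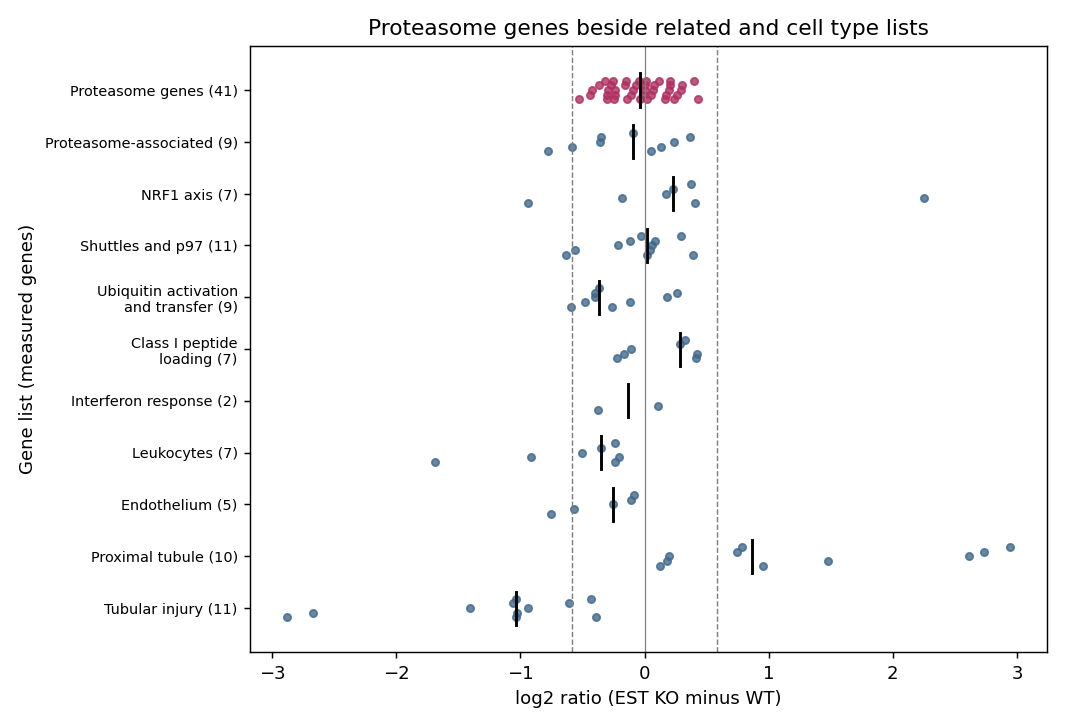
Log2 ratio (EST KO minus WT, horizontal axis) of each measured gene in the proteasome list and in 10 further lists (vertical axis, with the number of measured genes); black bars are medians and dashed lines mark 1.5-fold. The 41 proteasome genes are drawn between −0.53 and 0.43, while proximal tubule genes reach 2.95 and tubular injury genes −2.88. Genes below background in 1 pool are drawn at their bound, among them Psmd7 at 0.43 and the injury gene at −2.88.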

How the data were processed

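The series holds 1 array for a pool of kidneys of 6 EST KO mice and 1 for a pool of 3 WT mice, read with Affymetrix biotinylated cRNA from 8 ug of total RNA, per the labels' protocols. The deposited values are linear intensity values, 1 per probe set. From the values, the authors had scaled each array to a mean of 500.0 without the lowest and highest 2%; the summarising software is not given in the sources used here. Array medians were 242.4 (EST KO) and 261.8 (WT), within 10%, so no further scaling was applied.

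Symbols came from GEO's platform annotation (34958 probe sets with 1 symbol, 932 with several, 9211 with none) and were updated through Entrez ID against RefSeq GRCm38.p6 (34754 matched, all 103 members among them). The file holds 45101 probe sets, of which 10935 lay above background in the EST KO pool and 10839 in the WT pool. Values below background were set to it before log2, so a fold against it is a bound, and genes below it in both pools have no fold. A gene was read from its brightest probe set by the mean of both arrays. Folds of 1.5 and 2 were used for counts. Every gene that met the symbol rule is named, plus, for the other lists, up to 4 measured genes with the largest absolute log2 ratio. Other genes of these lists were added after their values were seen, to give directions and probe sets that differ. Endothelial, proximal tubule and tubular injury genes are given as counts, apart from Eng and Kap, and Alb is added as a check of the tissue. The members and lists were chosen with earlier results of these data known.

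The computation (Python 3.11.15, numpy 2.4.6, pandas 2.3.3, statsmodels 0.14.6) was tested on simulated data. Orientation of the promoter table was checked on 1627 overlapping windows of opposite strands, all of which were reverse complements. Alternatives covered background, floor, pseudocount (each array's background), centring, quantile normalization, removal of the intensity trend (lowess, fraction 0.3), choice of probe sets and of members. The number of arrays limits the precision.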

Additional observations from a re-analysis of the deposited data

How the results depend on the processing

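No paired analysis was possible because each genotype had 1 array, and for the same reason no replicate could be left out. A value was held to have moved when it shifted by more than 0.13 (log2), the SD of 1 member probe set. Under quantile normalization the medians of the alpha ring (−0.16), the constitutive beta ring (−0.34) and the whole constitutive core (−0.23) moved, and 2 members, Psmc5 and Psmd2, were at least 1.5-fold lower; the cause was not tested. With background at the 75th percentile, and also with no floor, 1 member, Psmd7, was at least 1.5-fold higher, because its WT value was then read as it stands. The median of the assembly chaperones was 0.01 as reported, −0.14 with background at the 75th percentile, which added Psmd10 and Psmg3, and 0.20 over the 3 genes above background in both pools. The median of all members lay between −0.16 and 0.02, so its sign is not settled, and no setting put a member 2-fold apart. Of 41 members, 30 kept the sign of their ratio under all alternatives and 11 changed it under at least 1. The number of members with a ratio above 0 was 14 under quantile normalization, 22 after centring on the median gene and 19 as reported. Leaving out Psmc3ip and Psme3ip1, an alternative added after seeing the data, left the median of 40 genes at −0.02.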
